A study of Mus musculus with 2 samples.

Results

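The 5 mouse genes of the oligoadenylate synthetase (OAS) family that were followed here were Oas1a, Oas2, Oas3, Oasl1 and Oasl2, chosen by symbol from 32285 genes counted in single cells. Each of 2 deposited runs held 1 library from PEP-WT mice, with the wild type Ptpn22 gene, and 1 from PEP-619WW mice, which were homozygous for the arginine-to-tryptophan autoimmunity variant of Ptpn22, placed in the C57BL/6 genome with CRISPR. PEP is the tyrosine phosphatase that Ptpn22 encodes. By the study's description all mice carried lymphocytic choriomeningitis virus clone 13 (LCMV-cl13), a strain that persists, and spleens of 4 to 5 age and sex matched mice per genotype were pooled at 8 days post infection and sorted for live CD45+ cells. Whether both runs come from that experiment could not be settled, for reasons given with the description of the cells. No library was described as uninfected, and the infection of the mice in either run rests on that description alone.

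OAS proteins are sensors of double-stranded RNA that type I interferon induces. When they bind such RNA, Oas1a, Oas2 and Oas3 join ATP into short oligoadenylate chains, second messengers that lead to the breakdown of viral and cellular RNA. The OAS-like proteins carry ubiquitin-like domains: mouse Oasl2 has kept synthetase activity, whereas Oasl1 has lost it and is known to limit translation of Irf7, the transcription factor that amplifies interferon production.

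All 5 members lie on mouse chromosome 5 in 2 groups (GRCm38, GENCODE coordinates). Oasl2 (ENSMUSG00000029561, chr5:114896936-114912234) and Oasl1 (ENSMUSG00000041827, chr5:114923240-114937915) lie on the plus strand. Oas2 (ENSMUSG00000032690, chr5:120730333-120749853), Oas3 (ENSMUSG00000032661, chr5:120753098-120777661) and Oas1a (ENSMUSG00000052776, chr5:120896256-120907521) lie on the minus strand. Oas1a lies among the other Oas1 genes, and Oas2 and Oas3 lie to one side of them. The 120 bases before the start of transcription are shown for Oas1a, its neighbour and paralog Oas1g, Oas3, Oasl1 and Oasl2. Oas1a and Oas1g are alike in sequence here. The part of these sequences in the OAS levels was not tested. The sequences are from RefSeq (GRCm38.p6), 5′ to 3′ on each gene's own strand, and capitals mark the letters GAAANNGAAA, the core of the element that interferon-activated factors bind.
Oas1a (chr5:120907526-120907645, minus strand): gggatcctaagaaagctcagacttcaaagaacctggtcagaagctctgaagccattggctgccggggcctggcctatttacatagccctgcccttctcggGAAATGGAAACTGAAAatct
Oas1g (chr5:120887614-120887733, minus strand): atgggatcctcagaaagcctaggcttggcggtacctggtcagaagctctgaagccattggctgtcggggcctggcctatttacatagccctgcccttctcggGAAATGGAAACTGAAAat
Oas3 (chr5:120777660-120777779, minus strand): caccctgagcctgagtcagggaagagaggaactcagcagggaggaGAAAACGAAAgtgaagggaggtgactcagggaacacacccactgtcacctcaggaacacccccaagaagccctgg
Oasl1 (chr5:114923120-114923239, plus strand): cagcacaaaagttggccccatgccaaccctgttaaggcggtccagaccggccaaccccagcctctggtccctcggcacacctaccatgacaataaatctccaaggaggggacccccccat
Oasl2 (chr5:114896814-114896933, plus strand): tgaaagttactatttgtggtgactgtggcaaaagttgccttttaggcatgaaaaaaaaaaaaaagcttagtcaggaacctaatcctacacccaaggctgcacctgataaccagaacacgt

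The whole RefSeq window, 250 bases before and 50 bases after the start, was searched on both strands for GAAANNGAAA. Oas1a held 2 overlapping matches, 20 and 14 bases before the start, and Oas3 held 1, 75 bases before it. Oas1g held the same overlapping pair 18 and 12 bases before its start, and aligned on that pair the 2 genes shared 91 of 100 bases. Neither Oasl1 nor Oasl2 had a match in this window. Of 32851 mouse windows of the same length, 3.44% held the motif. With the first letter dropped (AAANNGAAA), which 10.6% of windows held, Oasl1 had 2 matches, 177 and 156 bases before its start, and Oasl2 had none. Oas2 was not searched.

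The runs held very different cells and were never combined. The barcode counts of run 2 equal the cell numbers in the study's methods, while no source read for this work gives the origin of run 1. The libraries held between 8576 and 14821 barcodes, with 55504449 to 77916082 UMIs in all and a median of 2832 to 4837 UMIs per barcode. In run 1, B cells, plasma cells, T cells, monocytes and neutrophils were all present in both genotypes, but not in equal shares. By the classes defined below, B cells took 46.8% of barcodes from PEP-WT and 36.7% from PEP-619WW. Plasma cells took 15.9% and 22.1%, and neutrophils 5.44% and 10.1%. With 1 library per genotype, the genotype difference of run 1 cannot be told apart from other differences between its libraries. In run 2 the monocyte or macrophage class took 68.0% of all barcodes from PEP-WT mice and 44.6% from PEP-619WW mice, with 0 plasma and 2 B barcodes in PEP-WT. C1qa, a macrophage gene, was found in 75.9% of run 2 barcodes from PEP-WT and 20.5% from PEP-619WW, against 8.79% and 12.02% in run 1. At least 3 of 6 melanocyte genes were present in 431 run 2 barcodes from PEP-WT, in 44 from PEP-619WW and in 0 of run 1, and the labels of these samples, described as splenocytes, name liver as the tissue, tumor infiltrating cells as the cell type and the human T cell line Jurkat as the cell line. Xist was detected in 70.3% and 67.8% of run 1 barcodes and in run 2 in 31.1% from PEP-WT but 0.027% from PEP-619WW, although the mice were described as sex matched. Between 19 and 49 barcode sequences were shared by any pair of libraries. Ptpn22 itself stood at 76.7 UMIs among 1000000 in PEP-WT and 94.7 in PEP-619WW in run 1 and at 19.4 and 67.2 in run 2, which checks no genotype, since the knock-in leaves the counted 3′ end in place.

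Barcodes were assigned to 6 classes by their own UMIs: CD8 T (Cd3e and Cd8b1 detected), CD4 T (Cd3e and Cd4), B (Cd79a and Ms4a1), plasma (at least 5 UMIs of Mzb1), monocyte or macrophage (at least 5 of Lyz2) and neutrophil (at least 20 of S100a8 and S100a9 together). In run 1 each genotype had 261 to 6937 barcodes in a class, and among markers not used for the assignment detection was high for some: Trbc2 in 97.5% to 99.6% of the T cell classes, Cd79b in 96.9% and 97.2% of the B class, Jchain in 72.2% and 86.2% of the plasma class, Mpeg1 in 79.8% and 70.1% of the monocyte or macrophage class and Retnlg in 85.5% and 88.5% of the neutrophil class (PEP-WT first). It was low for others, namely Fcer2a in 17.8% and 11.01% of the B class, Tnfrsf17 in 10.6% and 10.2% of the plasma class and Adgre1 in 25.1% and 23.6% of the monocyte or macrophage class. The classes overlap: in run 1, 2459 of 14821 barcodes from PEP-WT and 1788 of 8576 from PEP-619WW fell into more than 1, and 554 and 562 of these met both myeloid rules (neutrophils also make Lyz2). In the plasma class 32.6% and 40.2% of barcodes, and in the neutrophil class 26.4% and 24.3%, were in that class alone. Barcodes in more than 1 class held 38.8% and 46.9% of all OAS UMIs in run 1, so each ratio below was also computed from barcodes of exactly 1 class. In run 2 only the monocyte or macrophage class (6488 and 4919 barcodes) and the neutrophil class (590 and 1071) had at least 50 barcodes in both genotypes. The neutrophil name was weakly borne out there, with Ly6g in 3.22% and 2.43% of barcodes and Camp in 0.169% and 0.093%, although Csf3r was found in 48.6% and 70.8% and Retnlg in 49.0% and 30.2%.

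With 1 library per genotype and run there was no test, so no p-value is given. Levels are counts per 1000000 (CPM), the UMIs of a gene among 1000000 UMIs of the class, with exact Poisson intervals, ratios are PEP-619WW over PEP-WT with exact intervals from the 2 counts, and shares have exact binomial (Clopper-Pearson) intervals, all at 95%. These cover counting error only, not the differences between cells, mice, libraries or sorts. For levels and ratios each UMI was taken as independent, although OAS UMIs were concentrated in a part of the barcodes, as given below. Those intervals are therefore too narrow even for the sampled cells. Each UMI marks the 3′ end of 1 transcript, so levels are not scaled by gene length.

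In run 1 OAS UMIs were found in every class, and the level was highest in neutrophils, then in monocytes or macrophages. Because the classes overlap, these levels are of mixed barcodes, and several shifted in barcodes of exactly 1 class, as given below. Summed over the 5 members, PEP-WT neutrophils held 804 CPM (781 to 828) and PEP-WT monocytes or macrophages 550.2 (539 to 562). The B class followed with 184 (179 to 188), the CD4 T class with 183 (169 to 198), the CD8 T class with 166 (159 to 173) and the plasma class with 111 (107 to 115). The intervals of neighbours in this order overlapped between B and CD4 T and between CD4 T and CD8 T, and no others. In PEP-619WW the order was 448 in neutrophils (431 to 466), 359 in monocytes or macrophages (348 to 369), 131 in CD4 T (118 to 146), 109.6 in B (105 to 114), 84.4 in CD8 T (79.4 to 89.7) and 71.2 in plasma cells (68.0 to 74.4), with no overlap between neighbours. The 4 lymphoid classes lay below, and both myeloid classes above, the level of hemoglobin-rich barcodes, a comparison described further on. That level was 273 CPM in PEP-WT and 277 in PEP-619WW, the last with an interval that overlapped that of monocytes or macrophages. It also lay above the 237 and 146 CPM of all barcodes, so it is not a floor. How much of the lymphoid OAS signal is background is therefore not settled by these levels.

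**Figure D1:**
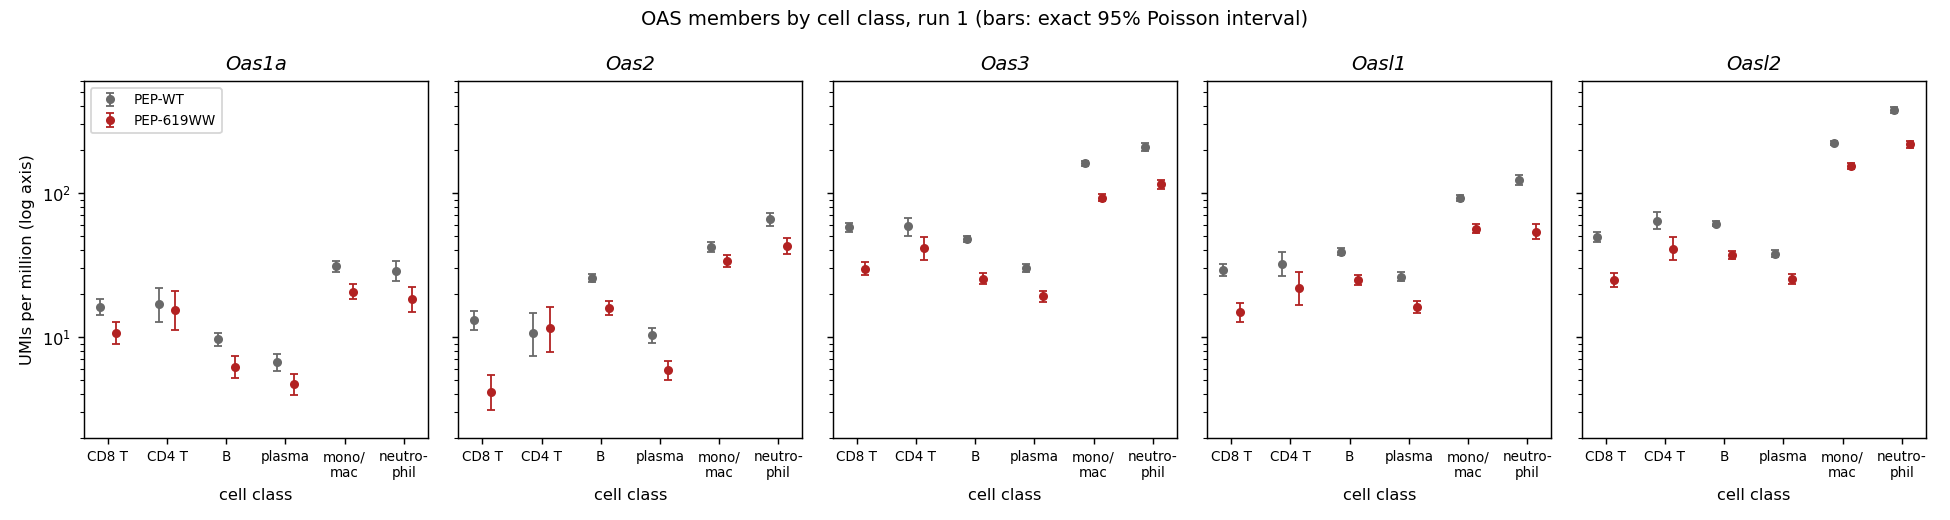
Levels of each OAS member in run 1, in CPM on a log axis, in 6 cell classes; points are the single library of each genotype (grey PEP-WT, red PEP-619WW) and bars are exact 95% Poisson intervals. Both myeloid classes stand above the lymphoid classes for Oas3, Oasl1 and Oasl2. The PEP-619WW point lies below the PEP-WT point in 29 of 30 pairs, which are not independent because the classes share barcodes.

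Oasl2 gave the most OAS UMIs in both runs, with 37.4% of the family total in PEP-WT and 38.7% in PEP-619WW of run 1, followed by Oas3 with 27.5% and 26.3%. The makeup differed between classes: in PEP-WT, Oas3 led in CD8 T cells with 34.9% of the family's UMIs and Oasl2 took 29.8%, whereas in neutrophils Oasl2 took 46.8% and Oas3 26.0%. Oas2 made up 14.03% of the family in B cells and 5.79% in CD4 T cells of PEP-WT. Oas1a gave the fewest OAS UMIs over the whole of run 1, with 5.94% in PEP-WT and 6.43% in PEP-619WW, but Oas2 gave fewer in both T cell classes (7.88% against 9.79% in CD8 T cells of PEP-WT). Its level in PEP-WT ran from 6.68 CPM in plasma cells to 30.9 in monocytes or macrophages.

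The OAS members were lower in PEP-619WW in nearly every class of run 1. Of 30 pairs of a member and a class, 29 were lower, 28 had an interval below a ratio of 1, and 22 were lower by at least 1.5-fold, with none higher by that much. These pairs are not independent, because the classes share barcodes. For all genes only the share past 1.5-fold is given below, so the counts of 29 and 28 have no such background. The family sum was lower by 1.96-fold in CD8 T cells (log2 ratio -0.97, -1.08 to -0.87), 1.79-fold in neutrophils (-0.84, -0.91 to -0.77), 1.67-fold in B cells (-0.74, -0.81 to -0.68), 1.56-fold in plasma cells (-0.64, -0.72 to -0.56), 1.53-fold in monocytes or macrophages (-0.62, -0.67 to -0.57) and 1.39-fold in CD4 T cells (-0.48, -0.67 to -0.29). Among all genes with at least 20 UMIs over both genotypes, the share that was lower in PEP-619WW by at least 1.5-fold was 6.7% in CD8 T cells, 8.47% in CD4 T cells, 5.65% in B cells, 5.89% in plasma cells, 7.39% in monocytes or macrophages and 12% in neutrophils. Against these shares, 5 of 5 members were past that limit in CD8 T cells, B cells and neutrophils, 4 in plasma cells, 2 in monocytes or macrophages and 1 in CD4 T cells. Of these 22 calls, 12 were lost under at least 1 other processing, among them Oas1a in CD8 T cells (-0.54 with fewer than 10 UMIs of Mt2) and Oas2 in B cells (-0.58 with doubled class limits). The median log2 ratio of the 5 members was -0.98, -0.50, -0.69, -0.65, -0.58 and -0.79 in CD8 T, CD4 T, B, plasma, monocyte or macrophage and neutrophil classes, and that of all genes lay between -0.11 (neutrophils) and 0.02 (B cells).

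**Figure D2:**
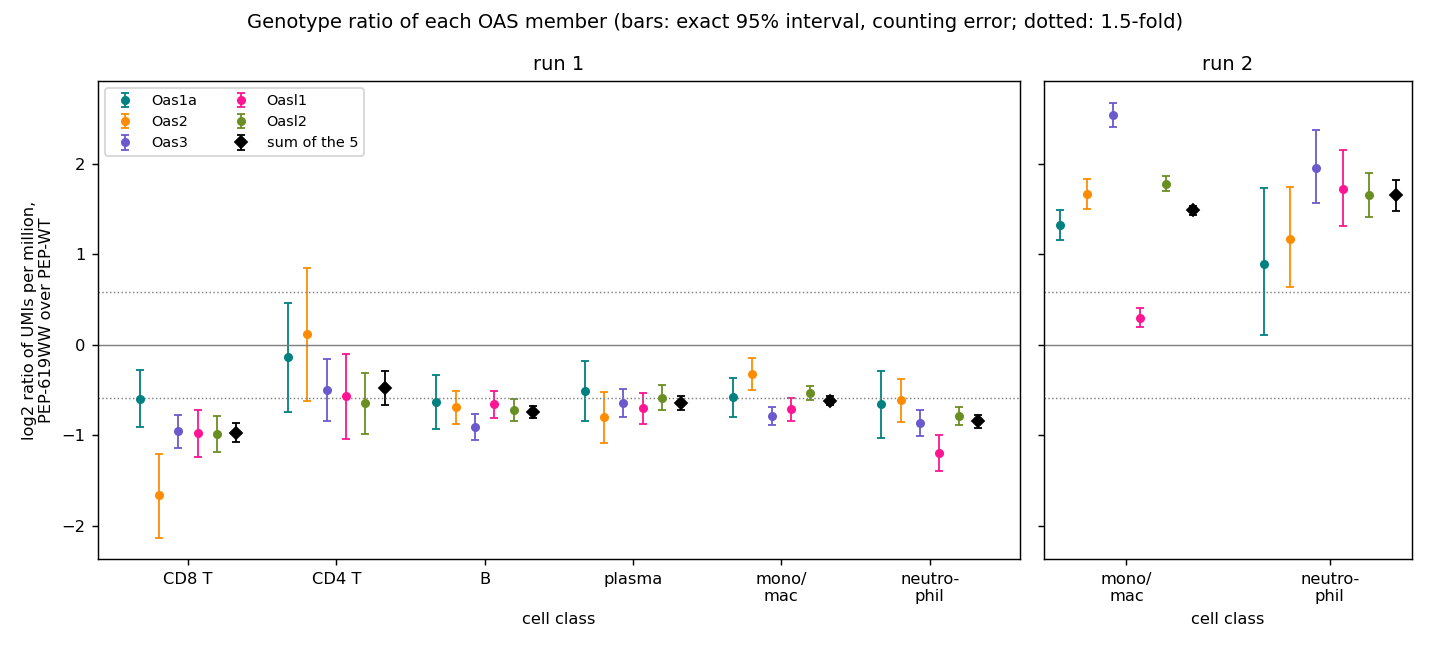
Log2 ratio of CPM, PEP-619WW over PEP-WT, for each OAS member and for the sum of the 5, by cell class, in run 1 (left) and run 2 (right); bars are exact 95% intervals for counting error and dotted lines mark 1.5-fold. In run 1 the points lie below 0 except Oas2 in CD4 T cells (0.11), and in run 2 they lie above 0.

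Oas3, the synthetase with the longest chain of repeated domains, was lower by at least 1.5-fold in 5 of 6 classes. In CD8 T cells it fell from 57.9 CPM in PEP-WT to 29.8 in PEP-619WW, 1.94-fold, and in B cells from 47.6 to 25.4, 1.87-fold. In neutrophils it stood at 209 and 115, 1.82-fold lower, in monocytes or macrophages at 161 and 93.1, 1.73-fold lower, and in plasma cells at 30.0 and 19.2, 1.56-fold lower. Its smallest difference was in CD4 T cells, with 58.7 and 41.5. The intervals of PEP-WT and PEP-619WW did not overlap in any of the 6 classes.

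Oasl2 was lower by at least 1.5-fold in 5 classes too, of which CD4 T cells did not keep the call in barcodes of exactly 1 class. In plasma cells it was lower by 1.501-fold, right at that limit (log2 -0.59, -0.72 to -0.45). It stood at 377 CPM in PEP-WT neutrophils (361 to 393) and 218 in PEP-619WW (206 to 231), and at 224 and 155 in monocytes or macrophages, where the difference of 1.45-fold was its smallest. Lymphoid levels were 49.4 and 24.9 in CD8 T cells, 64.4 and 41.2 in CD4 T cells, 61.3 and 37.2 in B cells and 37.9 and 25.3 in plasma cells. The PEP-WT library was the higher one in every class.

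Oasl1 showed its largest difference in neutrophils, from 124 CPM in PEP-WT to 54.1 in PEP-619WW, 2.29-fold lower with an interval of the log2 ratio from -1.40 to -0.99. In PEP-WT it was higher in neutrophils than in monocytes or macrophages (92.6), whereas in PEP-619WW the order was turned, with 54.1 and 56.5 and overlapping intervals. In CD8 T cells Oasl1 stood at 29.1 and 14.8, in CD4 T cells at 32.4 and 21.8, in B cells at 39.2 and 24.9 and in plasma cells at 26.2 and 16.1.

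Oas2 varied most between classes. In CD8 T cells it stood at 13.05 CPM in PEP-WT and 4.14 in PEP-619WW, from 181 and 52 UMIs, which is 3.15-fold lower and the largest ratio of any member in run 1. In CD4 T cells it stood at 10.6 and 11.5, from 35 and 32 UMIs, with an interval of the log2 ratio from -0.62 to 0.85. Its difference in monocytes or macrophages, 42.1 against 33.7, was 1.25-fold, and in neutrophils, 65.99 against 43.1, it was 1.53-fold. B cells held 25.7 and 15.9 and plasma cells 10.3 and 5.89.

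Oas1a was lower by 1.49-fold in monocytes or macrophages (30.9 and 20.7 CPM), 1.58-fold in neutrophils (28.8 and 18.3), 1.51-fold in CD8 T cells (16.2 and 10.7), 1.55-fold in B cells (9.64 and 6.23) and 1.42-fold in plasma cells (6.68 and 4.70). In CD4 T cells it stood at 16.9 and 15.4 with overlapping intervals. Whether reads were split between Oas1a and its paralog Oas1g was not measured, so both levels are uncertain. Oas1g, with 1.51 to 15.6 CPM in PEP-WT of run 1, was itself lower in PEP-619WW there by 1.56-fold to 2.55-fold in the 5 classes with at least 20 UMIs. In run 2 Oas1g was higher in PEP-619WW, with a log2 ratio of 1.32 (0.97 to 1.67) in monocytes or macrophages. In run 2 neutrophils it was 2.35 (0.30 to 5.50), from 2 and 19 UMIs.

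Barcodes of exactly 1 class gave the same direction for the family in all 6 classes of run 1, but not the same size. In CD4 T cells the ratio shrank to a log2 value of -0.12 (-0.41 to 0.17), from 239 and 179 barcodes at 162 and 149 CPM, so the difference was not detectable there. The 1 member call in CD4 T cells, Oasl2, was lost too, at -0.25 (-0.79 to 0.29). In neutrophils it grew to -1.31 (-1.51 to -1.12), from 213 and 210 barcodes at 1903 and 765 CPM. In CD8 T cells it was -1.06, in B cells -0.73, in plasma cells -0.62 and in monocytes or macrophages -0.64. In plasma cells the interval held a ratio of 1 for Oas2 (-1.07, -2.26 to 0.03) and Oasl1 (-0.23, -0.66 to 0.20). The class levels moved too: in CD8 T cells of exactly 1 class the family stood at 114 and 54.6 CPM, against 166 and 84.4, and in plasma cells at 44.6 and 29.0, against 111 and 71.2. The neutrophil levels of 1903 and 765 stood against 804 and 448, and the CD4 T levels of 162 and 149 against 183 and 131.

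In the neutrophil class, marker genes also differed between the genotypes in run 1, and not all one way. Csf3r was found in 77.7% of barcodes from PEP-WT and 52.0% from PEP-619WW, Cxcr2 in 70.1% and 51.3%, Ly6g in 37.5% and 43.2%, Retnlg in 85.5% and 88.5%, and Camp, a gene of immature neutrophils, in 22.1% and 41.0%. In neutrophil barcodes with Retnlg detected the family log2 ratio was -0.92 (-1.004 to -0.84). In the monocyte or macrophage class Csf1r was detected in 55.4% and 44.5% of barcodes and Fcgr1 in 51.9% and 36.5%. The family ratio was -0.62 among its barcodes with Ly6c2 detected and -0.64 among its C1qa-positive barcodes; Ly6c2, an inflammatory monocyte gene, was found in 57.7% and 66.1% of all run 1 barcodes and so does not mark that cell type here. The Retnlg subset is most of the neutrophil class, so it cannot address the differences in Csf3r, Cxcr2 and Camp. The part of these marker genes in the ratios was not tested.

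Detection per barcode was also highest in the myeloid classes. At least 1 OAS UMI was found in 93.2% (91.2% to 94.8%) of PEP-WT and 72.5% (69.3% to 75.4%) of PEP-619WW neutrophils, with median depths of 3482 and 3664 UMIs per barcode, and in 90.8% and 77.1% of monocytes or macrophages, at 6283 and 6375 UMIs. In lymphoid cells the shares were 50.03% and 41.3% in CD8 T, 54.8% and 53.3% in CD4 T, 42.8% and 34.0% in B and 48.7% and 37.7% in plasma cells, at median depths of 2837 to 9899 UMIs in PEP-WT and 3496 to 11400 in PEP-619WW. Thinned to 1000 UMIs per barcode, after leaving out 0 to 92 shallower barcodes per class and genotype, the shares were 65.7% and 41.5% in neutrophils, 50.4% and 36.3% in monocytes or macrophages, 13.6% and 8.39% in CD8 T, 16.8% and 13.4% in CD4 T, 18.0% and 11.6% in B and 10.9% and 7.38% in plasma cells.

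Hemoglobin-rich barcodes, with at least 10% of UMIs from 4 hemoglobin genes, served as a comparison for detection. In run 1 there were 663 of them in PEP-WT and 40 in PEP-619WW. Those of PEP-WT had a median depth of 2010 UMIs, 32.0% had an OAS UMI, and thinned to 1000 UMIs the share was 17.5%. The thinned shares of both T cell classes and of plasma cells were at or below this value and that of B cells was close to it. Detection alone thus does not set the lymphoid classes apart from these barcodes, while both myeloid classes stood above them. The hemoglobin-rich level was 273 CPM (249 to 298) in PEP-WT and 277 (204 to 367) in PEP-619WW, from 492 and 48 UMIs, with intervals that overlapped. Both lay above the level of all barcodes, 237 and 146 CPM, so hemoglobin-rich barcodes are not a floor of expression. Whether their OAS UMIs were their own or stray RNA was not tested. The makeup differed as well: Oasl1 gave 7.72% of OAS UMIs in hemoglobin-rich barcodes of PEP-WT and 15.4% to 23.6% in the 6 classes.

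**Figure D3:**
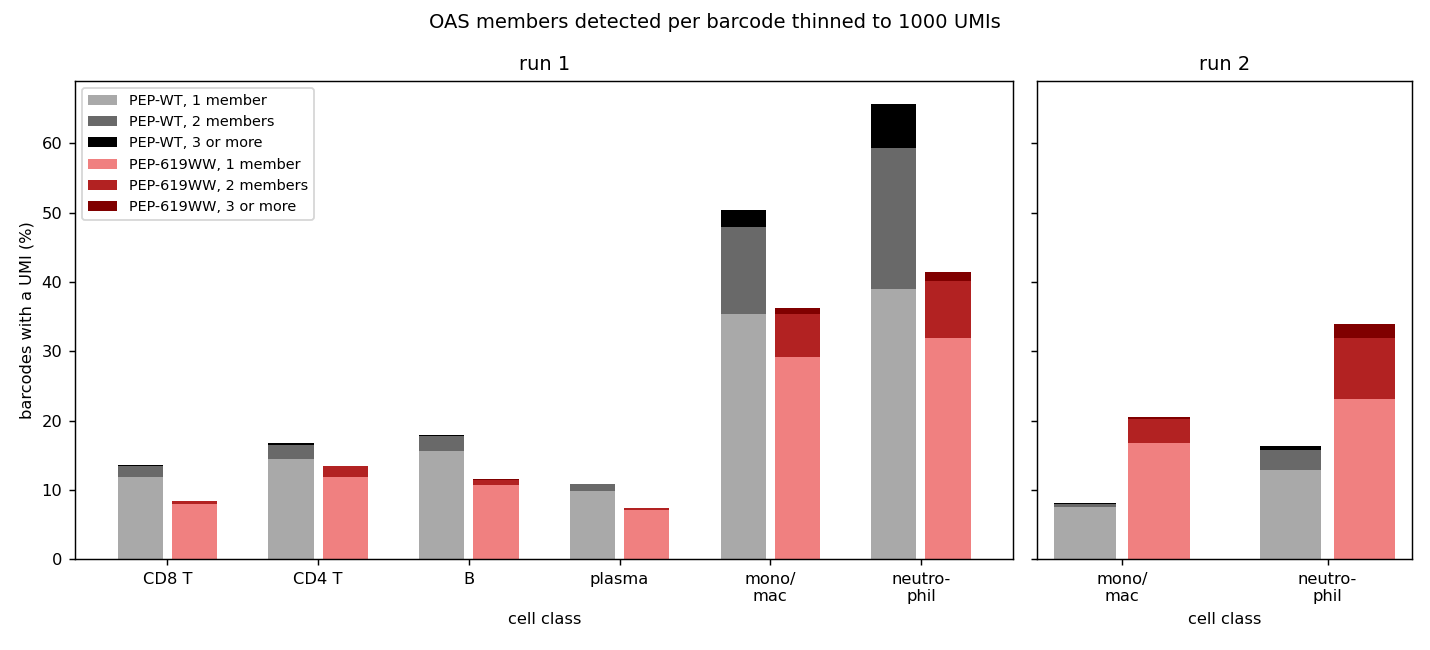
Share of barcodes, in percent, with 1, 2 or at least 3 different OAS members detected after thinning to 1000 UMIs per barcode, by cell class, for PEP-WT (grey to black) and PEP-619WW (light to dark red), in run 1 (left) and run 2 (right). In run 1 the PEP-WT bars are taller in each class, and in run 2 the PEP-619WW bars are taller.

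More than 1 member was found in some barcodes, most often in the myeloid classes. Single members were themselves detected in 2.19% (Oas1a) to 46.3% (Oasl2) of thinned PEP-WT neutrophils of run 1. The share with several members that separate detection alone would give was not computed, so the shares below do not show joint expression. In thinned neutrophils of run 1, 26.7% of barcodes from PEP-WT and 9.54% from PEP-619WW held at least 2 members, and 6.44% and 1.36% held at least 3. In monocytes or macrophages 15.1% and 7.17% held at least 2. In the lymphoid classes, 1.10% to 2.26% of barcodes from PEP-WT did, and 0.217% to 1.53% from PEP-619WW. Without thinning, the tenth of barcodes with the most OAS UMIs carried 29.2% to 30.4% of all OAS UMIs in the 2 myeloid classes of PEP-WT and 51.9% to 58.3% in its lymphoid classes. In PEP-619WW these shares were 35.6% to 36.6% and 53.4% to 66.2%.

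In run 2 the direction was the opposite one: the family was higher in PEP-619WW in both classes that could be compared. In monocytes or macrophages the sum was 84.2 CPM (81.9 to 86.5) in PEP-WT and 236 (231 to 241) in PEP-619WW, 2.81-fold higher (log2 1.49, 1.44 to 1.54). In neutrophils it was 159 (142 to 177) and 498 (476 to 521), 3.14-fold higher (log2 1.65, 1.48 to 1.82). Among all genes with at least 20 UMIs, 25% in monocytes or macrophages and 28.5% in neutrophils were higher in PEP-619WW by at least 1.5-fold, so the background of called genes was larger than in run 1. Of the 5 members, 4 were past that limit in monocytes or macrophages and 5 in neutrophils, with a median log2 ratio of 1.67 and 1.65 against 0.11 and 0.21 over all genes.

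Oas3 showed the largest difference in both classes. In monocytes or macrophages it rose from 9.35 CPM in PEP-WT to 54.3 in PEP-619WW, 5.81-fold, and in neutrophils from 28.8 to 112, 3.89-fold. Oasl2 stood at 29.3 and 100.8 in monocytes or macrophages, 3.44-fold higher, and at 77.2 and 243 in neutrophils, 3.15-fold higher. Oas2 stood at 7.48 and 23.8 in the first class and at 17.3 and 38.9 in the second.

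Oasl1 stood apart in run 2 monocytes or macrophages, with 29.9 CPM in PEP-WT (28.5 to 31.3) and 36.8 in PEP-619WW (34.8 to 38.9), 1.23-fold higher. It made up 35.5% of OAS UMIs in PEP-WT macrophages of run 2 and 15.6% in PEP-619WW, against 16.8% and 15.8% in run 1. In neutrophils of run 2 Oasl1 rose with the others, from 26.8 to 88.6, 3.30-fold. Oas1a stood at 8.14 and 20.4 in monocytes or macrophages and at 8.63 and 16.0 in neutrophils, the last from 18 and 62 UMIs, and in neutrophil barcodes of exactly 1 class its log2 ratio was -0.049 (-1.73 to 1.85).

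**Figure D4:**
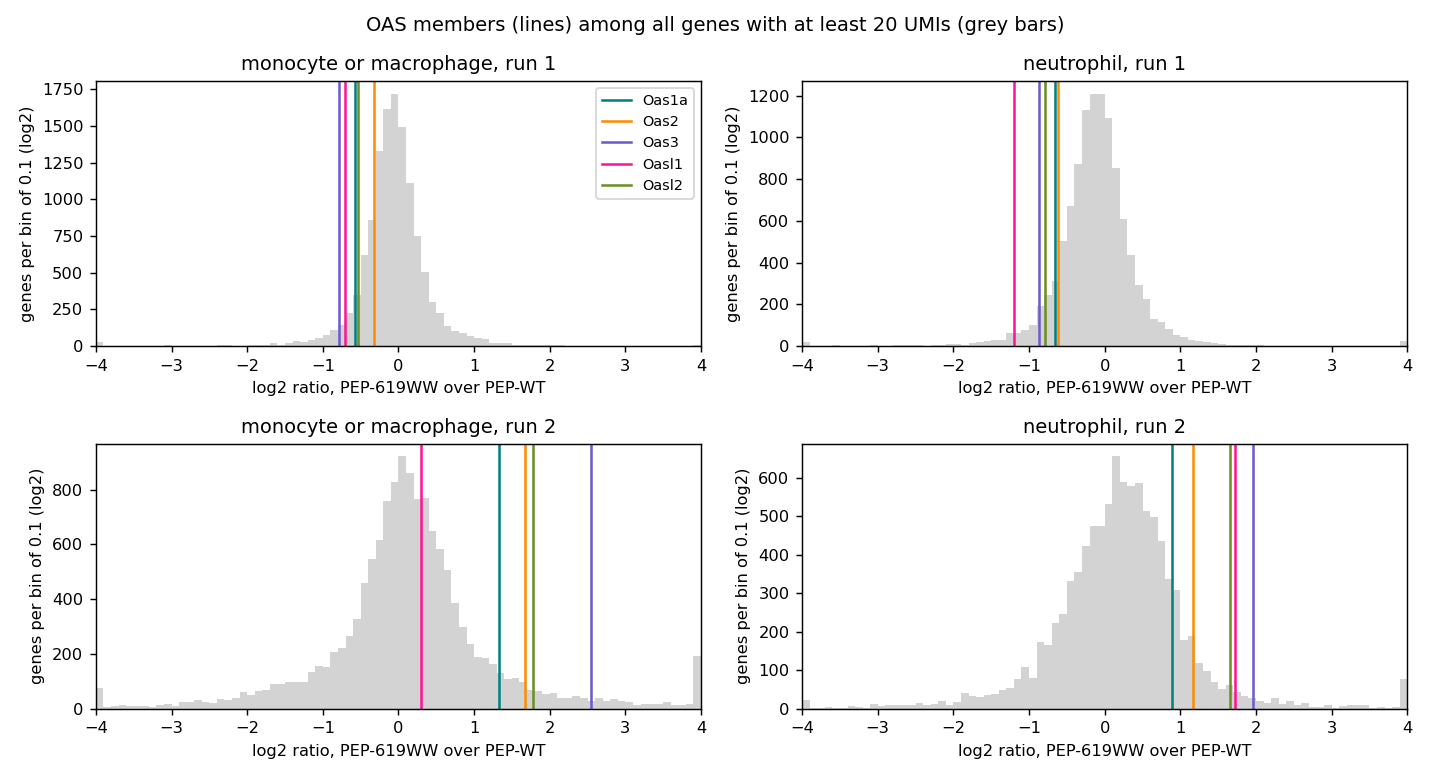
Log2 ratios, PEP-619WW over PEP-WT, of all genes with at least 20 UMIs over both genotypes (grey bars, genes per bin of 0.1, with genes beyond 4 in the end bars) and of the 5 OAS members (colored lines) in the monocyte or macrophage and neutrophil classes of run 1 (top) and run 2 (bottom). The members lie left of the peak in run 1 and right of it in run 2, where Oasl1 in monocytes or macrophages (0.30) lies nearest the peak.

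The cells of the run 2 libraries were unlike between genotypes. Over all barcodes, Folr2, a gene of resident macrophages, was found in 30.7% from PEP-WT and 5.56% from PEP-619WW and Ly6c2 in 4.62% and 28.8%. Within C1qa-positive barcodes of the monocyte or macrophage class the family stood at 82.3 and 239 CPM (log2 1.54, 1.48 to 1.60; 5671 and 1830 barcodes), and within Ly6c2-positive barcodes at 184 and 349 (log2 0.93, 0.80 to 1.05; 346 and 2018 barcodes). Without barcodes that held a melanocyte UMI the log2 ratio was 1.49 in monocytes or macrophages and 1.26 in neutrophils. Ifnb1, a type I interferon gene, had 177 UMIs in PEP-WT and 21 in PEP-619WW of run 2 and 0 in both libraries of run 1. Ifng, the type II interferon gene, had 62 UMIs in PEP-WT and 490 in PEP-619WW of run 2 and 3380 and 3587 in run 1. The part of either gene in the OAS levels was not tested. The difference between genotypes of run 2 cannot be told apart from these differences between its libraries.

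At least 1 OAS UMI was detected in 37.5% of PEP-WT and 53.3% of PEP-619WW monocytes or macrophages of run 2, at median depths of 7523 and 5919 UMIs, and in 31.2% and 54.1% of neutrophils, at 1613 and 1973. Thinned to 1000 UMIs per barcode, after leaving out 95 to 191 shallower barcodes per class and genotype, the shares were 8.10% and 20.6% and, for neutrophils, 16.4% and 34.0%. In the 102 hemoglobin-rich barcodes of PEP-WT the unthinned share was 6.86%, at a median of 2103 UMIs. Thinned, it was 1.22% of 82 barcodes, and the level was 28.3 CPM (13.6 to 52.1). PEP-619WW of run 2 held 1 such barcode. The lymphoid classes of run 2 could be described in PEP-619WW alone, where the family stood at 61.7 CPM in CD8 T (394 barcodes), 100.1 in CD4 T (438 barcodes) and 105.4 in B cells (503 barcodes). In PEP-WT these 3 classes held 8, 9 and 3 OAS UMIs.

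The remaining Oas1 genes were at low levels. Oas1b had no row of that symbol and was not analysed here. Oas1c was detected in every run 1 class at 4.04 to 9.16 CPM in PEP-WT and 3.58 to 8.22 in PEP-619WW. It was not lower by 1.5-fold in any of them, and its interval held a ratio of 1 in 5 of 6 classes, B cells being the exception (-0.28, -0.56 to -0.01). In run 2 it was higher in PEP-619WW monocytes or macrophages, at 2.51 and 3.88 CPM, 1.54-fold (log2 0.63, 0.28 to 0.97), and stood at 2.40 and 2.58 in neutrophils, from 5 and 10 UMIs. Oas1d and Oas1f had 0 UMIs in the classes compared, and Oas1e and Oas1h had at most 1 UMI per class and genotype.

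Of 15 genes that act before, after or alongside the OAS proteins, Irf7 was the one lower by at least 1.5-fold in all 6 classes of run 1. It fell from 188 CPM in PEP-WT to 76.8 in PEP-619WW in CD8 T cells, from 516 to 215 in neutrophils and from 540.3 to 249.9 in monocytes or macrophages, which is 2.44-fold, 2.40-fold and 2.16-fold. Eif2ak2, which encodes the RNA sensor PKR, was lower by at least 1.5-fold in 4 classes, by 1.76-fold in neutrophils, 1.55-fold in monocytes or macrophages, 1.54-fold in B cells and 1.52-fold in plasma cells. Of the 15 genes, 6 were lower by 1.5-fold in neutrophils, where 12% of all genes were, 5 in monocytes or macrophages (7.39% of all genes), 4 in plasma cells (5.89%) and 2 in B cells (5.65%). In CD8 T and CD4 T cells Irf7 alone was, which is near the background of 6.7% and 8.47%. The 1 gene that was higher by 1.5-fold was Mavs, an adaptor of RNA sensing, in CD4 T cells (log2 0.80, -0.22 to 1.85, from 15 and 22 UMIs). In run 2 the counts lay mostly the other way, with 9 of 15 higher by 1.5-fold in monocytes or macrophages, where 25% of all genes were, and 8 in neutrophils, where 28.5% were. In monocytes or macrophages 1 gene was lower by 1.5-fold (log2 -0.63), and in neutrophils none was. Irf7 was higher in these 2 classes of run 2 by 3.94-fold and 3.80-fold.

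Other groups of interferon-induced genes had the same direction as the OAS family in each comparison. The summed ratio of Ifit1, Ifit2, Ifit3 and Ifit3b ran from a log2 value of -1.58 in neutrophils to -0.31 in CD4 T cells in run 1. That of Isg15 with Usp18, Herc6, Uba7 and Ube2l6, the ubiquitin-like modifier and its enzymes, ran from -1.68 to -0.50 in run 1. Both were larger in size than the OAS ratio in neutrophils (-0.84) and in monocytes or macrophages (-0.95 and -1.30 against -0.62), with intervals that did not overlap. In run 2 the Ifit sum was higher by a log2 value of 1.06 in monocytes or macrophages and 2.79 in neutrophils, and the Isg15 group by 1.26 and 1.62.

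Over the 12 class and genotype values of run 1, the 5 genes whose log2 levels were most like the OAS sum, among 12089 genes with at least 100 UMIs, were Ube2l6 (Pearson's r = 0.99), Rsad2 (0.99), 1600014C10Rik (0.98), Ifit2 (0.98) and Snap23 (0.98). The 12 values share 2 libraries and overlapping classes, so these are descriptions. The members themselves had r of 0.99 (Oasl2), 0.99 (Oas3), 0.98 (Oasl1), 0.94 (Oas2) and 0.87 (Oas1a) with the sum they belong to. Run 2 did not hold 12 such values and was not ranked.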

How the data were processed

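By their description the authors sorted live CD45+ splenocytes, pooled by genotype, made 10x Genomics 3′ libraries and counted UMIs with Cell Ranger on mm10 (version 6.0.0 per the labels). The deposited files hold whole-number counts (UMIs) per gene and barcode, with no normalization, for 2 runs of 1 library per genotype; run 2, with 9539 and 11029 barcodes, has the cell numbers given in the study's methods, while neither the labels nor the methods read here give the origin of run 1 or say whether the peptide stimulation in the labels applied to the sequenced cells. The study's methods name another Cell Ranger release than the labels. The members, gene lists, classes and tests were chosen with earlier results of these data known.

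Symbols were matched for 32158 of 32285 gene identifiers. UMIs were summed over the barcodes of a class and divided by all UMIs of that class. Ratios need at least 50 barcodes in each library, a limit set after class sizes were seen, and all genes with at least 20 UMIs over both genotypes gave the background, with 1.5-fold as the limit of a call. No barcode was filtered and no doublet caller was run; barcodes in more than 1 class were left out as an alternative. Named genes were the 5 members, the Oas1 genes, those of 15 pathway genes that passed 1.5-fold in at least 3 classes of run 1 with an interval without 1, and the 5 genes most like the OAS sum by log2(CPM + 1), CPM being UMIs among 1000000 UMIs of a class; some pathway genes are not reported here. The ratio calculation was checked on simulated Poisson counts with known ratios. Those counts follow the model of the intervals, so they cannot show how the concentration of UMIs in barcodes affects them. Scripts ran in Python 3.11.15 with pandas 2.3.3 for tables, numpy 2.4.6 for sums, scipy 1.17.1 for intervals and matplotlib 3.10.9 for plots. RefSeq gave no window for Oas2 here, and no protein sequences were used.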

Additional observations from a re-analysis of the deposited data

Results flagged for a closer look

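The OAS family ratio between genotypes pointed in opposite directions in the runs. In the monocyte or macrophage class the log2 ratio, PEP-619WW over PEP-WT, was -0.62 (-0.67 to -0.57) in run 1 and 1.49 (1.44 to 1.54) in run 2. In the neutrophil class it was -0.84 (-0.91 to -0.77) in run 1 and 1.65 (1.48 to 1.82) in run 2. These 4 values were singled out because the single library of each genotype moved one way in run 1 and the other way in run 2. The difference between runs was not tested, since each run holds 1 library per genotype.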

How the results depend on the processing

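The OAS family ratio kept its direction in all 59 alternatives of run 1 and all 23 of run 2, of which 16 were chosen after seeing the data (Ly6c2, C1qa, Retnlg, melanocyte genes, and Mt2 outside T cells); 60 of the 82 stayed within the 95% interval of the reported value. The causes of the other values were not tested. With barcodes of exactly 1 class the log2 ratio was -0.12 in CD4 T cells and -1.31 in neutrophils of run 1 and 1.43 in neutrophils of run 2, where Oas1a turned to -0.049. Of 370 member values, 317 stayed within the interval of the reported value, and 12 of the 22 member calls of at least 1.5-fold in run 1 and 2 of the 9 in run 2 were lost under at least 1 alternative (25 of 192 and 7 of 94 values). Of the 370, 3 had the opposite sign, the others being Oas1a at 0.16 with barcodes of exactly 1 class and Oas2 at -0.16 with doubled gate limits, both in CD4 T cells, where the reported values (-0.14 and 0.11) have intervals that hold 0. With doubled gate limits it was -0.52 in plasma cells and 1.55 in run 2 monocytes or macrophages. Without the deepest 5% of barcodes it was -0.82 in B cells, -0.76 in plasma cells, -0.99 in neutrophils and 1.57 in run 2 monocytes or macrophages. With equal weight per barcode it was -0.56 in plasma cells, -0.83 in monocytes or macrophages, -1.26 in neutrophils and, in run 2, 1.26 in neutrophils. Scaled by the median ratio of genes it was -0.55 in monocytes or macrophages and -0.73 in neutrophils, and 1.35 in run 2 monocytes or macrophages. Without Oasl2, the member with the most UMIs, it was -0.68 in monocytes or macrophages of run 1 and 1.30 in those of run 2. It was -0.92 in Retnlg-positive neutrophils of run 1, and in run 2 it was 0.93 in Ly6c2-positive and 1.54 in C1qa-positive monocytes or macrophages and 1.26 in neutrophils without melanocyte UMIs.

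Thinning to 1000 UMIs lowered the share of barcodes with an OAS UMI (PEP-WT, then PEP-619WW) to 13.6% and 8.39% in CD8 T, 16.8% and 13.4% in CD4 T, 18.0% and 11.6% in B, 10.9% and 7.38% in plasma, 50.4% and 36.3% in monocyte or macrophage and 65.7% and 41.5% in neutrophil classes of run 1, and to 8.10% and 20.6% in monocytes or macrophages and 16.4% and 34.0% in neutrophils of run 2. With 2-fold as the limit, the share of all genes past it was 2.81% in CD8 T, 2.56% in CD4 T, 1.95% in B, 2.01% in plasma, 2.59% in monocyte or macrophage and 3.70% in neutrophil classes of run 1, and 14.0% and 11.6% in the 2 classes of run 2; minimums of 10 or 50 UMIs moved no share by over 1.5 times. No paired analysis was possible because each run holds 1 library per genotype. Leaving out a replicate was not possible for the same reason. Depth limits Oas1a and Oas2 most, whose smallest sums were 18 and 32 UMIs.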

Other observations

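Barcodes that met no class rule held 14.6% of the OAS UMIs in PEP-WT and 9.47% in PEP-619WW of run 1, at 216 CPM (208 to 225) and 131 CPM (122 to 140). In run 2 they held 11.7% and 15.3%, at 96.0 CPM (89.1 to 103) and 112 CPM (107 to 118).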
